A study of Mus musculus with 14 samples.

Results

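Heat shock proteins and related chaperones were followed in libraries labelled Qk-KO and WT, from the corpus callosum of mice and from oligodendrocyte cultures. The members were all genes whose symbol began with Hspa, Hspb, Hspd, Hspe, Hsph, Dnaja, Dnajb, Dnajc or Cct2 to Cct8, after 11 symbols ending in a pseudogene suffix (-ps) had been left out. This gave 80 genes of 46983 in each table. They comprised 14 Hspa and Hsph genes (the HSP70 and HSP110 families), 10 Hspb genes (mainly small heat shock proteins), Hspd1 and Hspe1 (the mitochondrial chaperonin pair), 9 Cct genes (subunits and relatives of the cytosolic chaperonin), and 45 genes for J proteins (4 Dnaja, 13 Dnajb and 28 Dnajc). A pair of Hspb symbols, Hspbp1 and Hspbap1, matched by spelling: Hspbp1 encodes a nucleotide exchange factor of HSP70 and is no small heat shock protein.

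Chaperones help proteins to fold, refold and reach their place in the cell. HSP70 proteins bind exposed hydrophobic stretches in a cycle driven by ATP. J proteins bring them their clients and start ATP hydrolysis, and exchange factors such as the HSP110 proteins release the nucleotide. Small heat shock proteins bind unfolded proteins without ATP and hold them in a form that can be refolded. The CCT ring encloses actin, tubulin and other clients while they fold, and the Hspd1 and Hspe1 products do the same inside mitochondria. Many of these genes are induced through heat shock factor 1, which binds repeats of the unit GAA and its complement. Genes of the endoplasmic reticulum (ER) chaperones can also respond to the unfolded protein response. Oligodendrocytes are known to express CRYAB, a small heat shock protein.

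Qk encodes quaking, an RNA-binding protein of myelinating glia. The tissue came from FvB/C57BL6 hybrid mice that received tamoxifen when 8 weeks old, with dissection 4 days afterwards. Animals labelled Qk-KO (4) were Plp-CreERT2;QK LoxP/LoxP, and animals labelled WT (4) were Plp-CreERT2;QK LoxP/+. All 8 animals therefore had the Cre transgene, at least 1 floxed allele and tamoxifen, and the Plp promoter limits recombination to the cells that use it. The cultures were neural stem cells at passages 7, 12 and 13, differentiated in Neurobasal with T3 (50 ng/ml), IGF-1 (100 ng/ml), GlutaMAX-I (2 mM) and B-27, with 3 libraries per genotype. Every culture library labelled Qk-KO also carries 40HT in its description and every WT library EtOH, so the agent and the genotype cannot be told apart. The labels do not say that the 3 passages came from separate animals, so p-values in culture measure the spread between these libraries.

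Library totals of fitted counts ran from 15048646 to 27666519 in callosum and from 38325833 to 48912999 in culture. The library columns hold fitted means without spread between replicates. A gene therefore has 1 fitted level per genotype, given here as fitted CPM (its share of all fitted counts of the library), and that level is identical in each library of the genotype. No single library can be seen to be high or low, and no SD can be given. Log2 changes (Qk-KO minus WT) with their standard errors (SE) and adjusted p-values are those of the authors' deposited tables. They use DESeq2's own scaling, so the ratio of 2 CPM values exceeds the deposited fold by a constant of 0.02 log2 units in callosum and 0.08 in culture. A gene was called higher or lower at an adjusted p under 0.05. Qk RNA did not fall in either system. It had 713 CPM in WT and 907 in Qk-KO callosum, a change of 0.32 ± 0.12 (SE; adjusted p = 0.162) in the authors' deposited table. In culture it had 1972 and 3277 CPM, a change of 0.66 ± 0.14 (SE; adjusted p = 4.19e-05) in the authors' deposited table. Counts over the whole gene check neither the deletion nor the labels.

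Promoter sequences of the members were searched for the binding unit of heat shock factor, because these stretches show how differently genes of 1 family carry it. RefSeq windows on GRCm38.p6, from 250 bases before to 50 bases after a start site, were matched by symbol to 67 of the 80 members. Of the members' 86 windows, 70 had bases after the start that lie in sense in a GENCODE transcript of the gene. Cct4, Dnajc11, Dnajc12, Dnajc18, Dnajc2, Dnajc22, Dnajc30, Dnajc5, Dnajc5b, Hspa13, Hspa8, Hspa9 and Hspb2 had no window. A run of 3 units (GAA, TTC and GAA, or TTC, GAA and TTC, with 2 free bases between neighbours, both strands) was present in 4 of the 67 members (5.97%) and in 0.662% of all genes with a window. The 4 were Dnajb6, Hspd1, Hspe1 and Hsph1. A run of 2 units (GAANNTTC or TTCNNGAA, both strands, contained in every run of 3) was present in 20 of 67 members (29.9%) and in 17.0% of all genes. In each line the matched units are in capitals, read 5′ to 3′ on the strand given in brackets, which is the gene's own except for Hspd1, a gene of the (-) strand. The capitals are runs of 3 units in the lines for Dnajb6 and for the divergent genes Hspe1 and Hspd1, where 2 such runs overlap, and runs of 2 units in the others:
Hspe1 and Hspd1, chr1:55088053-55088082 (+): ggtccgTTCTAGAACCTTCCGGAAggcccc
Dnajb6, chr5:29735844-29735872 (+): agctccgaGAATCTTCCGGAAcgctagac
Hsph1, chr5:149636351-149636380 (-): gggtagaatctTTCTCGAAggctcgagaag
Cct5, chr15:31601862-31601891 (-): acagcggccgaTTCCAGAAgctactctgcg
Hspa1a, chr17:34972223-34972290 (-): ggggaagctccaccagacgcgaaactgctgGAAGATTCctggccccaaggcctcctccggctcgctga
Hspa1b, chr17:34959305-34959372 (-): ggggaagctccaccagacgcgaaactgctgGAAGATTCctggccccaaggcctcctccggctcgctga
Hspb1, chr5:135887772-135887859 (+): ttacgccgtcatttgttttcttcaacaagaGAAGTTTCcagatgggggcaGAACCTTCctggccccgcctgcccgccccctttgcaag
Hspb6, chr7:30553151-30553218 (+): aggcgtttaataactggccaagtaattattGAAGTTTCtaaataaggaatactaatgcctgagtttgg

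The Hspa1a and Hspa1b stretches are the same letter for letter, as are long parts of their transcripts. Hspa1b shared 62.3% of its exonic 50-base words with Hspa1a, so the split of reads between this pair is uncertain. Hsph1 also held a run of 3 units, TTCTGGAAAGTTC, lying 15 to 27 bases after a start site. The ER stress element (CCAAT and CCACG with 9 free bases between them, both strands) was present in 2 of 67 members (2.99%) and in 0.137% of all genes. Its holders encode the main ER form of HSP70 and an ER-resident J protein, and the element is in capitals:
Hspa5, chr2:34772020-34772048 (+): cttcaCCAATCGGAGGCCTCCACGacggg
Dnajc3, chr14:118937797-118937875 (+): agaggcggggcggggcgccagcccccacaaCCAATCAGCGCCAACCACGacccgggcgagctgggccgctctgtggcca
The stretches printed for Hspe1 and Hspd1, Dnajb6, Hsph1, Cct5 and Hspa5 lie wholly or mostly in annotated exons, and the other stretches in none. A match is a description of the letters and no measurement of binding, and shares of windows were not tested.

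Of the 80 members, Dnajb8 and Dnajc5g had no reads in either system. Cct6b, Cct8l1, Dnajc22, Dnajc5b, Hspb7 and Hspb9 had reads but too few for an adjusted p in callosum. The same 6 and Dnajb7 lacked one in culture. This left 72 tested members in callosum and 71 in culture. Levels between genes are compared per kb of exonic length, counting the exons of all annotated isoforms. Hspa8, the constitutive cytosolic HSP70, stood first in both systems and genotypes. It had 296 CPM per kb in WT and 281 in Qk-KO callosum, and 387 and 409 in culture. Its reads alone made up 17.5% of the members' summed CPM in WT callosum and 25.3% in WT culture. Next in WT callosum came Dnajc6 (auxilin, which uncoats clathrin vesicles) at 84.4 CPM per kb, the ER chaperone Hspa5 at 64.8 and the chaperonin subunit Cct5 at 55.0. In WT culture the next were the small heat shock protein Hspb8 at 92.8, Cct2 at 82.5 and the mitochondrial HSP70 Hspa9 at 79.7 CPM per kb. The 2 tables were normalized separately, so these orders are given side by side and levels were not compared across them. At the low end, 9 members in callosum and 11 in culture were under 1 CPM in both genotypes.

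**Figure D1:**
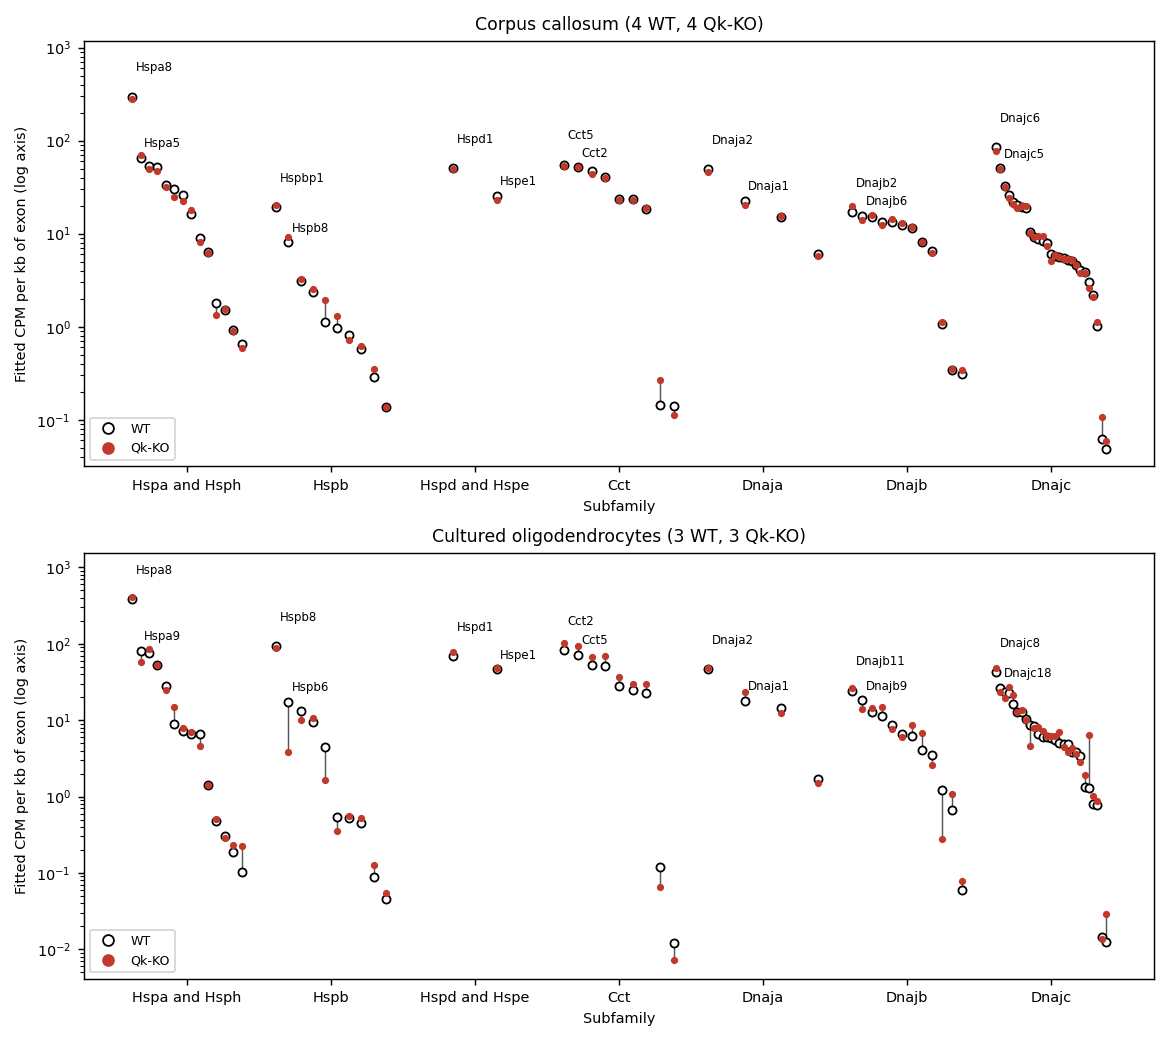
Fitted level of each member with reads, by subfamily, in callosum (top) and culture (bottom); the vertical log axis is fitted CPM per kb of exon, open circles are WT, red circles Qk-KO, and a line joins the 2 values of a gene. Hspa8 is highest in both panels, at 296 and 387 CPM per kb in WT, and the 2 highest members of each subfamily are named.

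In callosum, 1 of 72 tested members was called, Hspb6, and it was higher in Qk-KO. Hspb6 encodes HSP20, a small heat shock protein. Of all 19935 tested genes, 2.32% were called (2.09% higher and 0.231% lower), so 1 call in 72 is near that background. Hspb6 had 2.60 CPM in the 4 WT libraries and 4.48 CPM in the 4 Qk-KO libraries. The change was 0.76 ± 0.21 (SE; adjusted p = 0.0144) in the authors' deposited table. Its mean normalized count was 71.9. With a Student reference at 6 residual degrees of freedom in place of the normal one, its adjusted p was 0.589 and no member was called.

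No other tested member was called in callosum. The median over the 72 was -0.05 beside -0.01 for all tested genes, with 26 values above 0 and 46 below. Of all 19935 tested genes, 9607 lay above 0 and 10328 below. For 60 of the 72 members the 95% interval lay within 0.5 log2 units of 0, so larger changes of those genes lie outside their intervals. At an unadjusted p under 0.05 there were 8 of the 72 members, beside 1610 of all 19935 tested genes. Hspa12a, a distant HSP70 relative, had 276 CPM in WT and 230 in Qk-KO, a change of -0.29 ± 0.11 (SE; adjusted p = 0.193) in the authors' deposited table. Hspa12b, its endothelial relative, had 6.68 and 4.95 CPM, a change of -0.46 ± 0.18 (SE; adjusted p = 0.285) in the authors' deposited table. Hspa4l, of the HSP110 family, had 304 and 265 CPM, and the authors' deposited table gives -0.22 ± 0.10 (SE; adjusted p = 0.421). Dnaja1, a general cytosolic J protein, had 195 and 174 CPM, a change of -0.19 ± 0.08 (SE; adjusted p = 0.332) in the authors' deposited table. Among the 14 Hspa and Hsph genes, 12 had values below 0 (11 under library-size scaling, where 9254 of all 19935 tested genes did), and none was called. The inducible Hspa1a had 2.76 CPM in WT and 2.68 in Qk-KO, and Hspa1b had 4.29 and 4.31.

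In culture, 18 of 71 tested members were called (25.4%), 8 higher and 10 lower in Qk-KO. The share over all 17503 tested genes was 28.6% (13.3% higher and 15.2% lower), so the members were called about as often as genes in general. Their median change was 0.02 beside 0.01 over all tested genes. The split of directions depended on the scaling: dividing by library size in place of DESeq2's factors gave 15 higher and 7 lower. All tested genes turned likewise, from 2336 higher and 2667 lower to 3054 higher and 2296 lower. Of the 18, 5 changed at least 2-fold and 9 had an absolute log2 change under 0.5. With a Student reference at 4 residual degrees of freedom, 0 members were called, as were 0 of the 17503 genes.

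**Figure D2:**
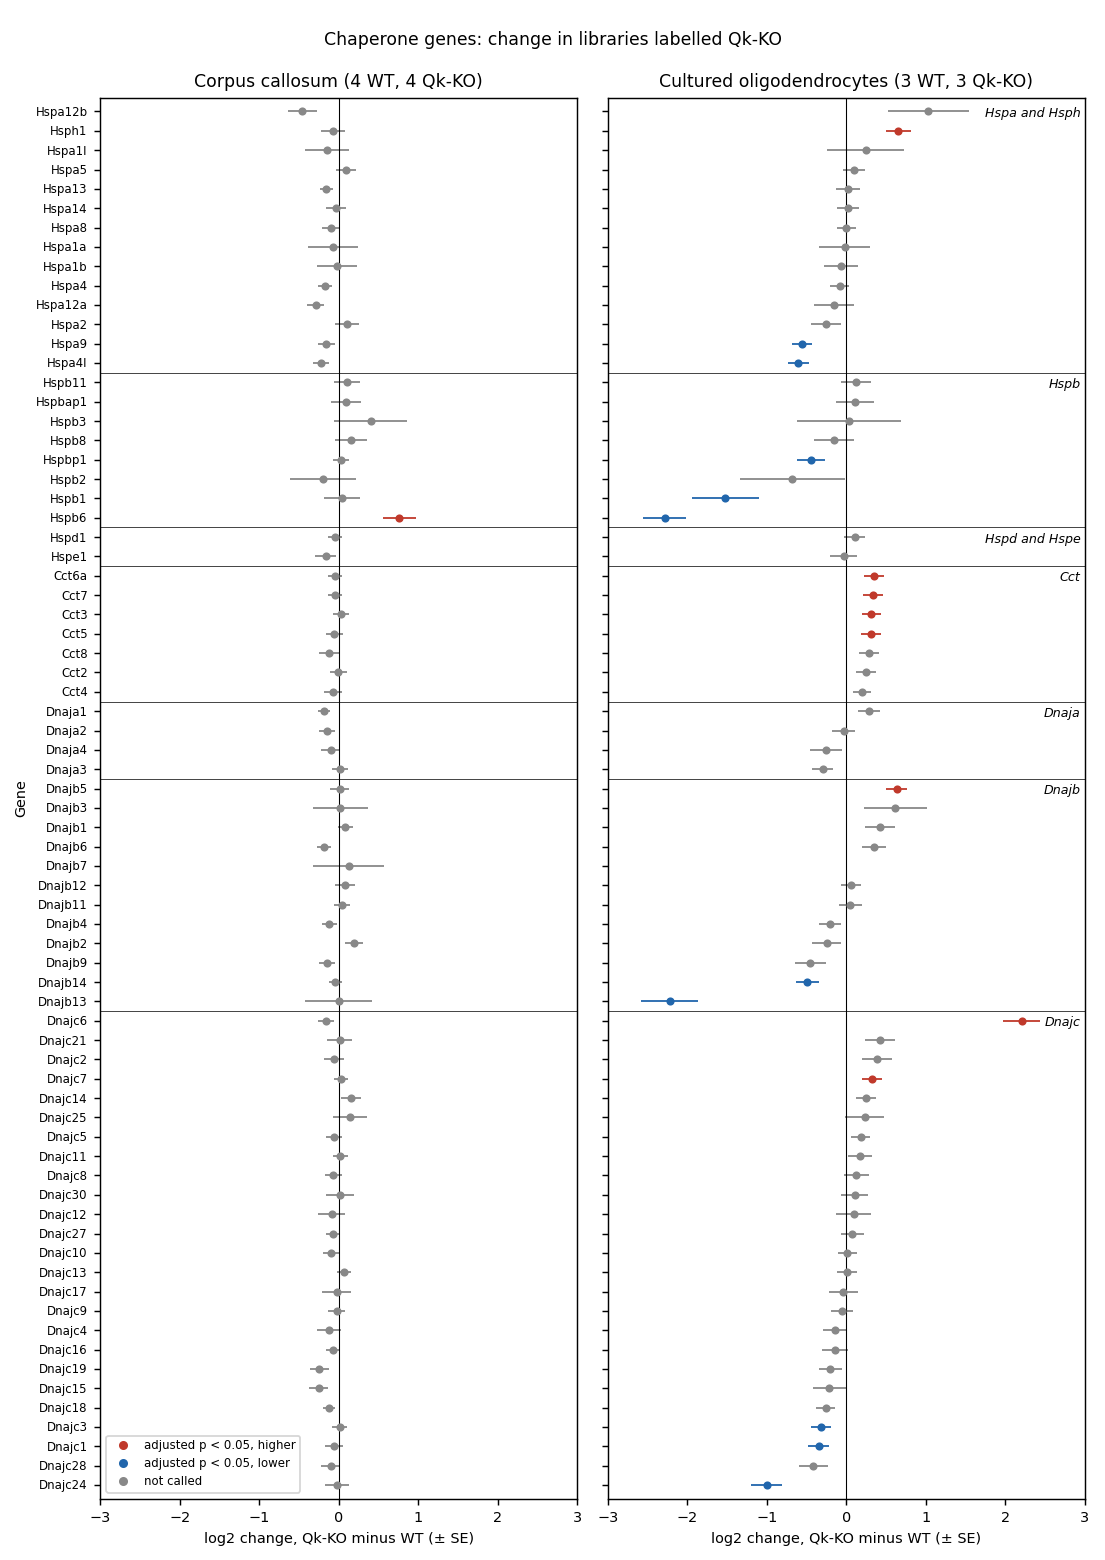
Log2 change (Qk-KO minus WT, horizontal axis) with its SE for every tested member, grouped by subfamily, in callosum (left) and culture (right), as deposited. Red and blue points are called higher and lower; callosum has 1 called member, Hspb6, and culture has 18, from -2.29 for Hspb6 to 2.21 for Dnajc6.

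Among the HSP70 and HSP110 genes in culture, 1 rose, 2 fell and 11 of 14 were not called. Of all tested genes in culture, 13.3% were called higher and 15.2% lower. Hsph1, which encodes the exchange factor HSP110 and carries the unit runs printed above, had 65.5 CPM in WT and 108.7 in Qk-KO. The authors' deposited table gives a rise of 0.66 ± 0.15 (SE; adjusted p = 0.000181). Its relative Hspa4l moved the other way, from 77.0 to 53.4 CPM. The authors' deposited table gives a change of -0.60 ± 0.13 (SE; adjusted p = 3.85e-05) for it. Hspa9, the mitochondrial HSP70 that pulls proteins through the inner membrane, went from 344 to 247 CPM. That was a change of -0.55 ± 0.13 (SE; adjusted p = 0.000119) in the authors' deposited table. Thus the 2 HSP110 family members with a call went in opposite directions, and the third, Hspa4, had 290 and 289 CPM.

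Of the well-known chaperone genes named whatever their values, Hsph1, Hspa9 and Hspb1 were called in culture, and Hspa1a, Hspa1b, Hspa8, Hspa5, Hspd1, Hspe1, Hspb8, Dnajb1 and Dnajc5 were not. Hspa1a had 1.44 CPM in WT, and the authors' deposited table gives a change of -0.02 ± 0.32 (SE). Hspa1b had 3.96 and 3.99 CPM, a change of -0.07 ± 0.22 (SE) in the authors' deposited table. The error of Hspa1a was above the median SE of 0.21 over all tested genes in culture, and that of Hspa1b was near it. The 95% intervals of Hspa1a and Hspa1b reach 0.60 and 0.36 log2 units upward. Hspa8 had 1664 and 1757 CPM, a change of 0.00 ± 0.12 (SE) in the authors' deposited table, with a 95% interval from -0.24 to 0.25. Hspa5, which holds the ER stress element, had 323 and 365 CPM, and the authors' deposited table gives 0.10 ± 0.14 (SE). Dnajb1, the main inducible cytosolic J protein, had 19.9 and 28.0 CPM, a change of 0.42 ± 0.19 (SE; adjusted p = 0.0817) in the authors' deposited table. It was called under library-size scaling.

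The lowest value of the 71 tested members in culture was that of the small heat shock protein gene Hspb6. In its subfamily 3 of 8 tested Hspb genes were lower and none was higher, beside 15.2% lower and 13.3% higher over all tested genes. Hspb6 went from 40.3 CPM in WT to 8.72 in Qk-KO, which is 4.88-fold lower on DESeq2's scale. Its change was -2.29 ± 0.27 (SE; adjusted p = 6.16e-16) in the authors' deposited table, opposite in sign to callosum. Hspb1, which encodes HSP25 (HSP27 in human) and holds 2 runs of 2 units, went from 4.59 to 1.69 CPM. The authors' deposited table gives -1.52 ± 0.42 (SE; adjusted p = 0.00215) for it. A processed copy, Hsp25-ps1, holds 48.8% of the 50-base words of Hspb1 and had a mean normalized count of 0.316 in culture. The exchange factor Hspbp1 had 24.8 and 19.2 CPM, a change of -0.45 ± 0.18 (SE; adjusted p = 0.0469) in the authors' deposited table. It was not called under library-size scaling. Hspb8, the Hspb member with the highest level per kb in culture, was not called. It had 181 CPM in WT and 171 in Qk-KO, a change of -0.16 ± 0.26 (SE) in the authors' deposited table.

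Where 8945 of all 17503 tested genes had culture values above 0, the 7 tested CCT genes all did, between 0.19 and 0.35 log2 units. Their summed level, with that of Cct6b and Cct8l1, went from 1195 to 1548 CPM. Of the 7, 4 were called higher, beside 13.3% of all tested genes: Cct3, Cct5, Cct6a and Cct7. That count was 6 under library-size scaling and 3 after centring on the median of all genes. Cct6a went from 186 to 250 CPM, a change of 0.35 ± 0.13 (SE; adjusted p = 0.0241) in the authors' deposited table. Cct7 went from 154 to 205 CPM, a change of 0.34 ± 0.13 (SE; adjusted p = 0.0289) in the authors' deposited table. For Cct3 the levels were 180 and 236 CPM, and the authors' deposited table gives 0.31 ± 0.12 (SE; adjusted p = 0.0303). Cct5 had 198 and 259 CPM, and the authors' deposited table gives 0.31 ± 0.13 (SE; adjusted p = 0.0475). Cct2, Cct4 and Cct8 had 0.25, 0.19 and 0.29 in the authors' deposited table, with adjusted p-values of 0.144, 0.214 and 0.0820. Tcp1, the subunit outside the rule, had 130 and 164 CPM, a change of 0.26 (adjusted p = 0.112) in the authors' deposited table. In callosum the same 7 lay between -0.12 and 0.03, and none was called. Psph overlaps 12.5% of the exonic length of Cct6a on the other strand and moved oppositely, from 50.7 to 30.5 CPM in culture. The pair Hspd1 and Hspe1, transcribed in opposite directions from the stretch printed above, was not called in culture. Hspd1 had 184 and 209 CPM, and Hspe1 had 68.1 and 70.1.

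The highest value of the 71 tested members in culture was that of a J protein gene. Dnajc6, the neuronal auxilin, went from 7.72 CPM in WT to 37.6 in Qk-KO in culture. The authors' deposited table gives 2.21 ± 0.23 (SE; adjusted p = 3.98e-19), which is 4.61-fold. Dnajb5, a cytosolic J protein, went from 24.4 to 39.9 CPM, a change of 0.63 ± 0.13 (SE; adjusted p = 2.03e-05) in the authors' deposited table. Dnajc7, a co-chaperone with tetratricopeptide repeats, went from 78.1 to 103.2 CPM, a rise of 0.32 ± 0.13 (SE; adjusted p = 0.0382) in the authors' deposited table. No other J protein gene was called higher, so the count was 1 of 11 tested Dnajb and 2 of 25 tested Dnajc, beside 13.3% of all tested genes.

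Among the J protein genes, 5 fell in culture, 2 of 11 tested Dnajb and 3 of 25 tested Dnajc, beside 15.2% of all tested genes. Dnajb13, known from sperm flagella and motile cilia, went from 3.35 to 0.755 CPM. Its change was -2.23 ± 0.35 (SE; adjusted p = 7.58e-09) in the authors' deposited table. Ucp2 on the opposite strand overlaps 11.2% of its exonic length and went from 11.2 to 2.63 CPM. Without a stated strand setting, the reads of this pair in the overlap cannot be told apart. The ciliated-cell marker Foxj1 went from 82.8 to 39.3 CPM in the same comparison, and its part in the Dnajb13 value was not tested. Of the 4 tested ependymal and choroid plexus markers, Foxj1 alone was called in culture. The 4 had 2 values below 0 and 2 above. Dnajc24, which acts in diphthamide synthesis, went from 11.9 to 6.24 CPM, 2.01-fold lower on DESeq2's scale. The authors' deposited table gives an SE of 0.19 log2 units and an adjusted p of 2.39e-06 for it. The remaining 3 encode J proteins of the ER. Dnajb14 went from 54.5 to 41.0 CPM, a change of -0.49 ± 0.14 (SE; adjusted p = 0.00272) in the authors' deposited table. Dnajc1 went from 39.4 to 32.6 CPM, a change of -0.35 ± 0.13 (SE; adjusted p = 0.0341) in the authors' deposited table. Dnajc3, which holds the ER stress element, went from 119.6 to 100.9 CPM, a change of -0.32 ± 0.13 (SE; adjusted p = 0.0375) in the authors' deposited table. Dnajc1 and Dnajc3 were not called under library-size scaling. None of the 4 tested Dnaja genes was called. Dnajc5, the cysteine string protein of synaptic vesicles, had 157 and 187 CPM, a change of 0.18 ± 0.12 (SE) in the authors' deposited table.

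Runs of the heat shock unit were present in called and in uncalled members. A run of 2 units was present in 3 of 8 members called higher in culture (Cct5, Cct6a and Hsph1), in 2 of 9 called lower with a window (Hspb1 and Hspb6) and in 13 of 43 not called. Of the 4 members with a run of 3 units, Hsph1 was called in culture, and Dnajb6, Hspd1 and Hspe1 were not. Dnajb6, which keeps aggregation-prone proteins soluble, had 67.9 and 91.3 CPM there, a change of 0.35 ± 0.15 (SE; adjusted p = 0.0649) in the authors' deposited table.

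Whether a member changed differently in culture and in callosum was tested on the 2 deposited changes and their errors with a z test, since the systems share no library. Of 71 members tested in both, 12 differed, 7 with the culture value above and 5 below, beside 21.5% of all 16601 genes (9.84% above and 11.7% below). Hspb6 was the sole member called in both systems, in opposite directions, and its difference (culture minus callosum) was -3.05 ± 0.34 (SE; adjusted p = 3.45e-17). Dnajc6 differed by 2.36 ± 0.25 (SE; adjusted p = 2.34e-18). In callosum it had 498 CPM in WT and 454 in Qk-KO. Dnajb13 differed by -2.22 ± 0.55 (SE; adjusted p = 0.000661) and Dnajc24 by -0.98 ± 0.24 (SE; adjusted p = 0.000687). Dnajb5 differed by 0.62 ± 0.18 (SE; adjusted p = 0.00426) and Hsph1 by 0.73 ± 0.21 (SE; adjusted p = 0.00540). In callosum these 4 genes had values between -0.08 and 0.01. The other 6 are Hspb1, Dnajb6, Dnaja1, Dnajb14, Hspa12b and Cct6a. With a Student reference at 10 residual degrees of freedom 4 differences were called, those of Dnajc6, Hspb6, Dnajb13 and Dnajc24. Deposited changes of genes with few reads may be understated, and the z test does not allow for this. Dnajb13 had a mean normalized count of 19.3 in callosum.

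**Figure D3:**
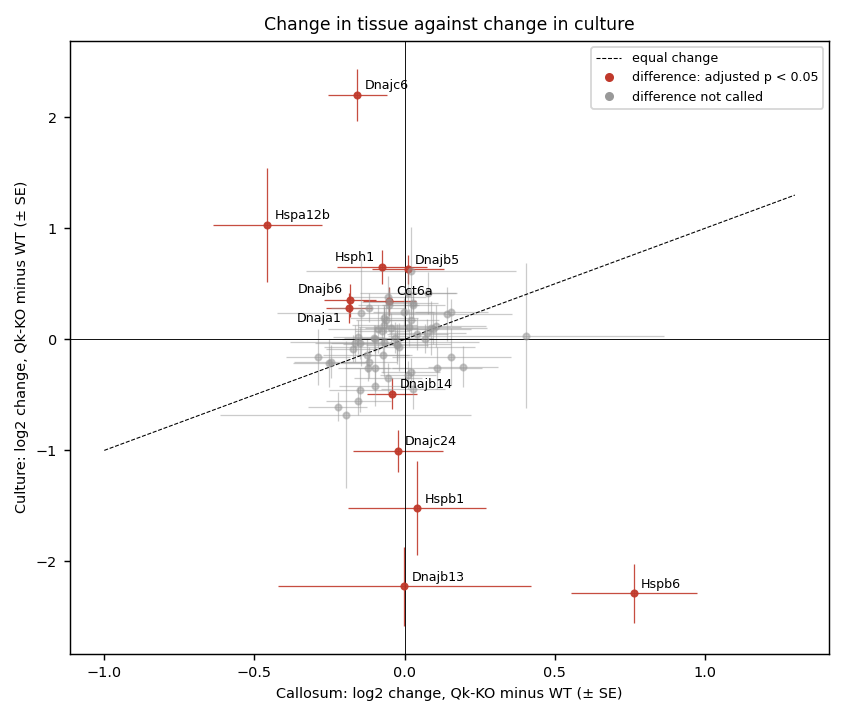
Log2 change in callosum (horizontal axis) against log2 change in culture (vertical axis), Qk-KO minus WT, for the 71 members tested in both; bars are SE, the dashed line marks equal change and red points are the 12 whose difference was called. Most points lie near 0 on both axes, and Hspb6 lies at 0.76 in callosum and -2.29 in culture.

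**Figure D4:**
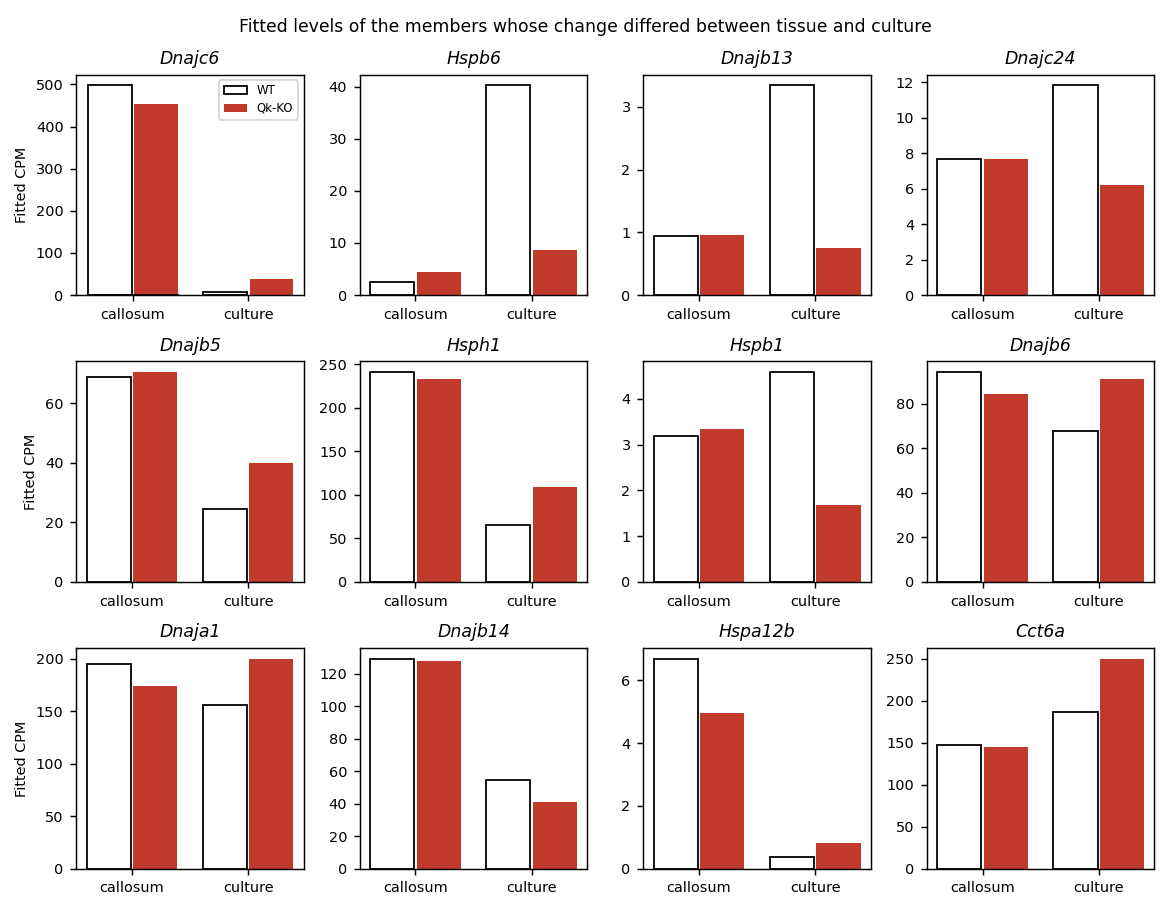
Fitted CPM of the 12 members whose change differed between the systems, in WT (open bars) and Qk-KO (red bars), with callosum on the left and culture on the right of each panel. Each genotype has 1 fitted value, so no error bar is drawn, and heights are not comparable between systems; Dnajc6 goes from 7.72 to 37.6 CPM in culture.

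Genes that work with the members were given by fixed lists. Over all tested genes, 13.3% were called higher and 15.2% lower in culture, and 2.09% and 0.231% in callosum. Of 36 tested partner chaperones and co-chaperones, 12 were higher and 6 lower in culture (15 and 3 under library-size scaling), and 0 were called in callosum, where 2 had an unadjusted p under 0.05. Bag3, the partner of HSPB8 in selective autophagy, went from 43.7 to 16.9 CPM, a change of -1.45 ± 0.17 (SE) in the authors' deposited table. Cryab, a small heat shock protein outside the rule, went from 148 to 60.4 CPM, a change of -1.37 ± 0.24 (SE) in the authors' deposited table. Sil1, the exchange factor of the Hspa5 product, went from 27.5 to 14.3 CPM, a change of -1.02 ± 0.16 (SE) in the authors' deposited table. On the higher side, Bag4 went from 15.9 to 28.9 CPM, Fkbp4 from 123 to 190 and the prefoldin subunit Pfdn4 from 6.90 to 13.5. Of 6 tested genes in the heat shock factor list, 2 were lower in culture (1 under library-size scaling). Hsf3 was very low, at 0.390 and 0.0394 CPM, and Hsf4 had 1.33 and 0.722. Hsf1 had 23.1 and 27.1 CPM, a change of 0.15 ± 0.14 (SE) in the authors' deposited table. Of 19 tested ER folding and unfolded protein response genes, 4 were higher in culture (8 under library-size scaling) and 1 was lower. Asns went from 35.7 to 59.6 CPM, Sdf2l1 from 9.87 to 18.9 and Xbp1 from 34.7 to 55.0, while Canx went from 744 to 525. In callosum 1 of 18 was called: Edem1, which helps to degrade misfolded ER proteins, at 29.8 and 39.9 CPM. Edem1 was called higher in culture as well (adjusted p = 0.000729 in the authors' deposited table).

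Markers of cell types moved in the same comparisons. In callosum 10 of 12 microglial markers were higher, with a summed level of 474 CPM in WT and 1069 in Qk-KO, as were 4 of 10 myelin and 2 of 10 astrocyte markers. In culture 8 of 10 astrocyte markers were lower (13725 and 4126 CPM summed), and 8 of 10 neuronal and 8 of 10 cell cycle genes were higher (774 and 1811, and 125 and 214 CPM). Gfap went from 4008 to 408 CPM and Snap25 from 5.02 to 75.9. Of the 12 microglial markers C1qa, C1qb, C1qc and Trem2 were at 0 in culture, and the list summed to 20.8 and 12.4 CPM. In these cultures, labelled as oligodendrocytes, myelin markers summed to 3022 CPM in WT and 2377 in Qk-KO. Oligodendrocyte precursor markers summed to 2829 and 2615 CPM, and of 6 tested 2 were higher (Olig1 and Olig2) and 3 lower (Cspg4, Gpr17 and Ptprz1). The part of these markers in the values of Hspb6, Hspb1, Dnajc6 and the other members was not tested. In bulk samples, fewer cells of a type and less RNA per cell cannot be told apart. The 2 values of Hspa12b in culture, 0.383 and 0.828 CPM, stood beside endothelial and mural markers at 9.94 and 6.47 CPM summed, with Cldn5 at 0.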

How the data were processed

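The authors deposited 1 DESeq2 table for callosum (4 WT and 4 Qk-KO libraries) and 1 for culture (3 and 3). Reads were processed with TopHat2 2.0.14, featureCounts, DESeq2 and FastQC on build mm10, per the submitters' processing notes. For the annotation and the strand setting, the sources used here give nothing. The model is not stated there either and is read from the library columns. The mean column the authors deposited is a normalized signal (counts divided by size factors). Their fold change and its error are log2 values of WT over Qk-KO, turned here to Qk-KO minus WT. Their score equals fold change over error, and their p-value columns hold a Wald p-value and its Benjamini-Hochberg adjusted value, per the file headers. The deposited library columns are log2 of a fitted mean plus 1: libraries of a genotype differed by 1 constant factor, within 1e-09. The planned limma test on these columns was therefore not run, and every call rests on the deposited statistics, adjusted over the whole table. Log2 changes at means under 1 reached only 1.06 in callosum and 0.96 in culture, so folds of genes with few reads may be understated.

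Fitted CPM, the z test of the difference (adjusted over 16601 genes), exonic lengths and overlaps (GENCODE vM21), shared words of 50 bases and motifs (RefSeq windows) were computed with Python 3.11.15, pandas 2.3.3, numpy 2.4.6 and scipy 1.17.1. The z test was also run on changes simulated with normal errors of the deposited SE. That run checks the computation and cannot check whether the SE are right. All 80 identifiers were found in vM21, 54 with the same version. Alternatives were thresholds of 0.01 and 0.1, a 1.5-fold minimum, no filter on low means, at least 1 CPM, library-size scaling, median centring and a Student reference. The mitochondrial gene mt-Rnr2 took 4.35% of mean normalized counts in callosum and 18.4% in culture, which enters library-size scaling.

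Named genes are the called members, the 2 highest per subfamily, a fixed set of well-known chaperones, the 6 strongest differences and up to 3 called genes per list and direction; the next members by p in callosum, overlapping neighbours, Hsf1, Tcp1, Hspa4, Dnajb6, Dnajc14, Dnajc21, Cct4, Cct8 and Foxj1 were added after their values were seen. Members and lists were chosen with earlier results of these data known.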

Additional observations from a re-analysis of the deposited data

Results flagged for a closer look

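The 12 members below had a different change in culture than in callosum by the z test on the deposited log2 changes (adjusted p under 0.05 over 16601 genes). They are 12 of the 71 members tested in both systems, beside 21.5% of all 16601 genes. Members therefore differed no more often than genes in general. Values are culture minus callosum on the log2 scale. Culture lay above callosum for Dnajc6 (2.36), Hspa12b (1.49), Hsph1 (0.73), Dnajb5 (0.62), Dnajb6 (0.53), Dnaja1 (0.47) and Cct6a (0.40). Culture lay below callosum for Hspb6 (-3.05), Dnajb13 (-2.22), Hspb1 (-1.56), Dnajc24 (-0.98) and Dnajb14 (-0.45). Dnajb6, Dnaja1 and Hspa12b were called in neither system alone, and their differences had adjusted p-values of 0.0144, 0.0158 and 0.0328. Hspa12b rests on a mean normalized count of 26.4 in culture.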

How the results depend on the processing

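No paired analysis was possible because the deposited library columns are fitted means without replicate spread, although culture libraries share passage numbers. Libraries of a genotype differed by 1 constant factor, so the deposited fits held genotype and no passage term. The deposited culture p-values therefore leave this pairing out, and no library-level values exist here to add it. Without replicate spread, no library could be left out in turn and no other count test could be run. In callosum the 1 call was kept at an adjusted p under 0.1, at 1.5-fold, without the filter on low means, at 1 CPM and under both rescalings. It became 0 at an adjusted p under 0.01 and 0 with a Student reference. In culture the 18 calls became 10 at an adjusted p under 0.01 (3 higher), 8 at 1.5-fold (3 higher and 5 lower) and 0 with a Student reference in either direction. Calls higher numbered 15 under library-size scaling, where Cct2, Cct8, Dnaja1, Dnajb1, Dnajb6, Dnajc14 and Dnajc21 were gained and Dnajc1, Dnajc3 and Hspbp1 lost. Without the filter 13 were called, and Cct5, Dnajc1, Dnajc3, Dnajc7 and Hspbp1 were lost. The 12 differences between systems became 7 at an adjusted p under 0.01 (3 above) and 4 with a Student reference (1 above and 3 below). With both tables at library-size scaling, an alternative chosen after seeing the data, 14 differed. The cause of each change was not tested beyond the construction of the alternative. Calls over all genes are given above for library-size scaling and the Student reference in culture only. The other counts show how the calls depend on the setting, and they were not compared with the share over all genes. The inducible genes Hspa1a and Hspa1b had SE in culture of 0.32 and 0.22 at mean normalized counts of 64.0 and 173. The median SE of all tested genes there was 0.21, so precision was low for Hspa1a and near the median for Hspa1b.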
